A study of Mus musculus with 4 samples.

Results

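The genes described here encode the enzymes and regulators with which a cell removes peroxides and superoxide and keeps its thiols reduced: the glutathione and thioredoxin systems, the peroxiredoxins, superoxide dismutases and catalase, with the transcription factor NRF2 and its inhibitor KEAP1. They were taken by gene name from a given list of 37 symbols. The table held all 37 among its 24497 mouse rows, and 32 were tested, having at least 1 TPM (an abundance scaled for transcript length and to a fixed total per library) in at least 2 of the 4 libraries. RNA-seq was done on mouse leukaemic cells from spleen, in 2 libraries of Tet2 KO cells and 2 of WT cells. Tet2 encodes a dioxygenase that oxidises 5-methylcytosine in DNA. Bone marrow stem cells of Tet2-/- or WT mice had been turned into leukaemia with NRAS and AE9a, a shortened AML1-ETO fusion, so both groups carry these oncogenes. Both had also been grown with SCF, IL-3 and IL-6 under G418 and puromycin. They were then transplanted into CD45.1 recipients aged 6 to 8 weeks and irradiated with 900 cGy, and CD45.2 donor cells were enriched from the spleen. The labels give neither the Tet2 allele nor the number of mice behind each group. With WT averaged as described below, a p-value reflects spread between the 2 Tet2 KO libraries, pooled in part over genes. That spread may be technical.

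Glutathione is a tripeptide made by glutamate-cysteine ligase and glutathione synthetase. Glutathione peroxidases spend it on reducing peroxides, transferases attach it to electrophiles, and glutathione reductase restores it from its oxidised form with NADPH. Peroxiredoxins are a parallel set of thiol peroxidases, most of which are reduced again by thioredoxin, which thioredoxin reductase keeps reduced. NRF2 activates many of these genes through antioxidant response elements unless KEAP1 marks it for degradation. Phagocytes make superoxide on purpose with the NADPH oxidase, and granulocytes rely on the glutathione system to limit self-damage.

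The WT libraries were nearly alike, with a spread close to read sampling for most genes, and were averaged as 1 sample (n = 1). Tet2 KO values are given for each library, or as mean ± SD (n = 2). Every p-value is a limma p on log2(TPM + 1), Benjamini-Hochberg adjusted over all 11919 tested genes, and each log2 change is printed with its standard error. Tet2 RNA stood at 63.7 and 68.1 TPM in Tet2 KO, against 43.5 and 43.7 TPM in WT, so it was not lower under that label. A missing exon would not be visible in a gene total, and directions rest on the labels. The leukocyte gene Ptprc and the myeloid genes Itgam and Cd33 stood above 100 TPM in all 4 libraries. They belong to a list of 9 leukaemic myeloid genes, of which 5 were higher in Tet2 KO and 2 lower. That list summed to 2471 and 2120 TPM in Tet2 KO, against 1644 and 1654 TPM in WT. Neutrophil genes differed greatly: a list of 16 summed to 107789 and 86777 TPM in Tet2 KO, against 1727 and 1763 TPM in WT, and 15 of them were higher. A list of 13 red pulp and tissue macrophage genes summed to 1215 and 1528 TPM in Tet2 KO, against 3209 and 3231 TPM in WT, with 6 of 10 tested genes lower and 1 higher. A list of 9 dendritic cell genes summed to 63.8 and 44.9 TPM in Tet2 KO, against 432 and 436 TPM in WT, with 6 of 6 tested genes lower. A list of 9 mast cell and basophil genes summed to 203 and 212 TPM in Tet2 KO, against 77.9 and 74.6 TPM in WT, with 4 of 5 tested genes higher and 1 lower. In bulk RNA, fewer cells of a type and less RNA per cell cannot be told apart, and the part of these marker genes in the results below was not tested. Erythroid cells are rich in Prdx2, Cat and Gpx1. A list of 13 erythroid genes summed to 56.4 and 80.4 TPM in Tet2 KO and 13.6 and 11.6 TPM in WT, with 4 of 5 tested genes higher and Hbb-bs at 0 throughout. Lists of T, B and NK cell genes summed to at most 12.0 TPM in any library, and Ncr1 was at 0.

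Antioxidant genes were rearranged rather than moved one way. Of the 32 tested, 11 were higher and 18 lower in Tet2 KO, or 90.6%, against 48.8% of all genes tested (22.1% higher and 26.7% lower). On the TPM scale their summed level was nearly the same in both groups, 6969 and 6956 TPM in Tet2 KO and 7369 and 7438 TPM in WT. These sums were not scaled to the ERCC spike-in RNAs. Those RNAs took 2.95% and 3.19% of TPM in Tet2 KO, against 4.66% and 4.62% in WT. The genes higher in Tet2 KO were the 3 measurable glutathione peroxidases, glutathione reductase, 3 glutathione transferases, Prdx5, Prdx6, glutaredoxin and Txnip. Those lower were the genes of glutathione synthesis, the other 4 peroxiredoxins and sulfiredoxin, thioredoxins and their reductases, Sod1, Sod2, catalase, 2 transferases and Keap1. The groups did not overlap for 31 of the 32, against 87% of all genes, and 24 were called with a log2 change of at least 1 in either direction, against 30.2% of all genes. The median log2 change of the 32 was -0.72, beside -0.12 for all genes tested. Without the filter on low values none of the 29 calls passed (limma adjusted p from 0.0568 to 0.267, with 8 higher and 8 lower at an unadjusted p under 0.05; over all genes 123 were then higher and 295 lower). Scaled to the ERCC spike-in RNAs, which moved the median of all genes to 0.43, 12 of the 32 were higher and 11 lower, against 41.5% and 12.5% of all genes, and none changed its sign. With both WT libraries as samples 3520 of all genes were higher and 4517 lower. Of the antioxidant genes 12 were then higher and 18 lower.

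**Figure D1:**
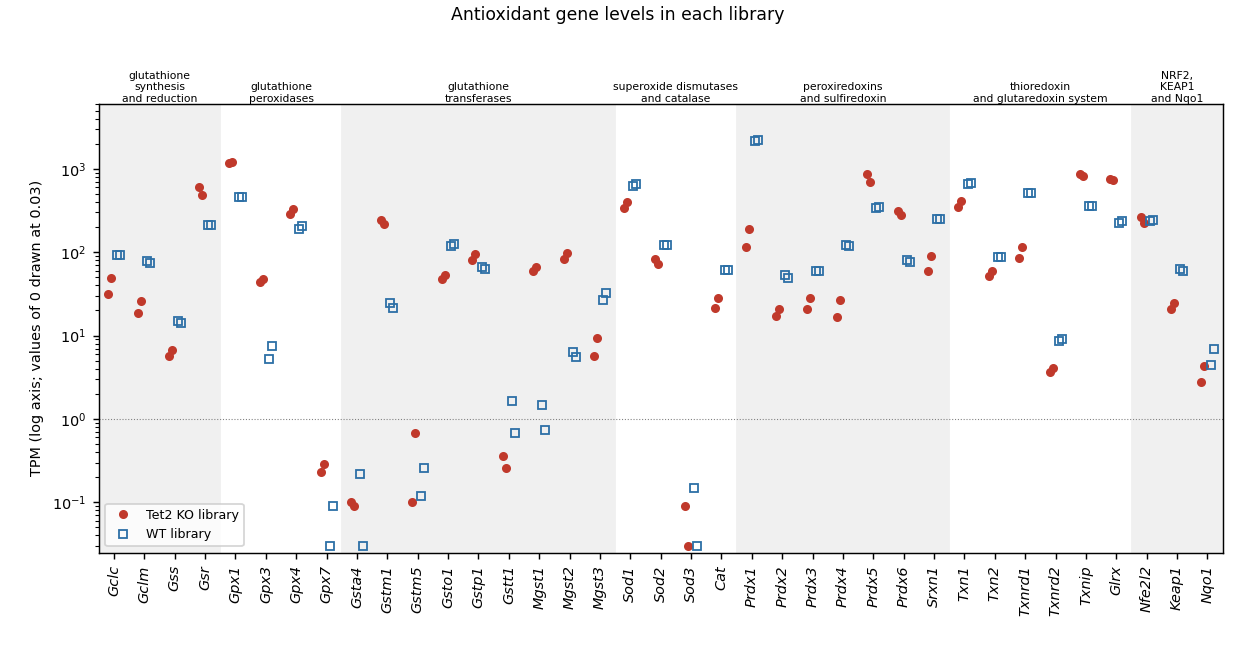
TPM of the 37 antioxidant genes on a log axis in each Tet2 KO library (filled circles) and each WT library (open squares), grouped by role, with 1 TPM dotted. Prdx1 stands at 117 and 190 TPM in Tet2 KO, against 2187 and 2190 TPM in WT, while Mgst1 stands at 59.3 and 66.2 TPM in Tet2 KO, against 1.45 and 0.74 TPM in WT.

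Glutathione synthesis and glutathione recycling moved in opposite directions. Gclc, the catalytic subunit of glutamate-cysteine ligase and the rate-limiting step, stood at 31.5 and 49.2 TPM in Tet2 KO, against 92.4 and 93.7 TPM in WT. Its partner Gclm, the modifier subunit, stood at 18.5 and 26.1 TPM in Tet2 KO, against 78.9 and 73.3 TPM in WT. Gss, which adds the last amino acid, had the lowest level of these genes, at 5.68 and 6.68 TPM in Tet2 KO, against 15.1 and 14.1 TPM in WT. In all 3 both Tet2 KO libraries lay below both WT libraries. The log2 changes were -1.22 ± 0.26 for Gclc (adjusted p = 0.00340), -1.75 ± 0.23 for Gclm (2.54e-05) and -1.12 ± 0.30 for Gss (0.00527). With ERCC scaling Gclm still passed as lower, while Gclc (adjusted p = 0.0753) and Gss (0.0718) did not pass. The highest limma adjusted p of any alternative was 0.267 for Gclc and 0.123 for Gss. Gsr, the reductase that regenerates glutathione, stood at 614 and 489 TPM in Tet2 KO, against 214 and 214 TPM in WT. It rose by 1.35 ± 0.25 on the log2 scale (adjusted p = 0.000320).

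All 3 tested glutathione peroxidases were higher in Tet2 KO. These enzymes carry selenocysteine at the active site. Gpx1, the main cytosolic form, stood at 1179 and 1221 TPM in Tet2 KO, against 464 and 464 TPM in WT, a log2 change of 1.37 ± 0.27 (adjusted p = 0.000517). Gpx3, the secreted form, stood at 44.0 and 47.1 TPM in Tet2 KO, against 5.22 and 7.48 TPM in WT, 7.17-fold higher (2.66 ± 0.23 on the log2 scale, adjusted p = 9.54e-08). Gpx4, which reduces lipid peroxides within membranes and so protects from ferroptosis, had the smallest change. It stood at 290.0 and 333 TPM in Tet2 KO, against 192 and 206 TPM in WT (0.64 ± 0.23 on the log2 scale, adjusted p = 0.0296). This call was lost with quantile normalization (limma adjusted p = 0.0689) and without the abundance trend and robust estimation (0.0629). The highest adjusted p of any alternative was 0.179. Gpx7, a peroxidase of the endoplasmic reticulum, was at or under 0.29 TPM in every library and was not tested. Together these 4 genes summed to 1513 and 1601 TPM in Tet2 KO, against 661 and 678 TPM in WT.

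Of 6 tested glutathione transferases, 3 were higher in Tet2 KO, 2 were lower and 1 did not pass. Mgst1, a transferase and peroxidase of the endoplasmic reticulum and outer mitochondrial membrane, had the largest rise, with 59.3 and 66.2 TPM in Tet2 KO and 1.45 and 0.74 TPM in WT. This is a 57.3-fold higher mean and a log2 change of 4.92 ± 0.24 (adjusted p = 1.70e-10), and the gene passed the filter mainly through the Tet2 KO libraries. Mgst2, whose protein can make leukotriene C4, stood at 82.5 and 96.8 TPM in Tet2 KO, against 6.32 and 5.58 TPM in WT (3.70 ± 0.20, adjusted p = 7.37e-10). Gstm1, a cytosolic mu-class transferase, stood at 245 and 215 TPM in Tet2 KO, against 24.5 and 21.7 TPM in WT (3.26 ± 0.20, adjusted p = 2.52e-09). In these 3 the lowest Tet2 KO library lay far above the highest WT library. Mgst3, the third member of the membrane family, went the other way, with 5.76 and 9.36 TPM in Tet2 KO and 26.8 and 32.2 TPM in WT (-1.86 ± 0.31, adjusted p = 0.000176). Gsto1, an omega-class transferase with glutaredoxin-like activity, stood at 48.1 and 53.6 TPM in Tet2 KO, against 120 and 124 TPM in WT (-1.25 ± 0.19, adjusted p = 5.31e-05). Both groups of libraries were again apart. Gstp1, the pi-class transferase, did not pass, at 79.9 and 94.3 TPM in Tet2 KO and 65.7 and 62.5 TPM in WT (0.43 ± 0.20, adjusted p = 0.0806). It passed as higher with ERCC scaling (limma adjusted p = 0.00480) and with both WT libraries as samples (0.0196). In that design its log2 change was 0.55 without Tet2 KO replicate 1 and 0.31 without replicate 2. The highest adjusted p of any alternative was 0.282. Gstt1 stood at 0.36 and 0.26 TPM in Tet2 KO and 1.62 and 0.67 TPM in WT, and Gsta4 and Gstm5 did not exceed 0.68 TPM; these 3 were not tested. Mu- and pi-class genes lie beside close copies, so the division of reads among them is uncertain.

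The superoxide dismutases Sod1 and Sod2 and catalase were lower in Tet2 KO, catalase by the most. Sod1, the cytosolic copper and zinc enzyme, stood at 336 and 400.1 TPM in Tet2 KO, against 628 and 656 TPM in WT (-0.81 ± 0.25, adjusted p = 0.0135). Sod2, the manganese enzyme of mitochondria, stood at 83.7 and 71.6 TPM in Tet2 KO, against 121 and 121 TPM in WT (-0.64 ± 0.20, adjusted p = 0.0147). Cat, which breaks down hydrogen peroxide in peroxisomes, stood at 21.2 and 28.6 TPM in Tet2 KO, against 61.6 and 60.8 TPM in WT (-1.28 ± 0.23, adjusted p = 0.000291). The libraries of the groups did not overlap for any of them. Catalase alone among them stayed lower with ERCC scaling (adjusted p = 0.0264). Sod1 (adjusted p = 0.463) and Sod2 (0.867) did not pass there, nor with quantile normalization, and Sod2 also failed with median centring and without trend and robust estimation (0.0659). The highest limma adjusted p of any alternative was 0.463 for Sod1, 0.867 for Sod2 and 0.185 for Cat. The extracellular Sod3 was at or under 0.15 TPM throughout and was not tested.

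The peroxiredoxins divided along their mechanism. The 4 typical 2-Cys enzymes, Prdx1 to Prdx4, which form dimers linked by a disulfide, were lower in Tet2 KO, whereas the atypical Prdx5 and the 1-Cys enzyme Prdx6 were higher. Prdx1, a cytosolic enzyme (chromosome 4, 116685544 to 116700822), stood at 117 and 190 TPM in Tet2 KO, against 2187 and 2190 TPM in WT. Its mean was 14.3-fold lower, with a log2 change of -3.87 ± 0.29 (adjusted p = 9.44e-07). In WT this 1 gene made up 77.1% and 77.0% of the summed TPM of the 6 peroxiredoxins, and in Tet2 KO 8.60% and 15.2%. Prdx4, the form of the endoplasmic reticulum, stood at 16.6 and 26.4 TPM in Tet2 KO, against 122 and 119 TPM in WT (-2.47 ± 0.26, adjusted p = 2.30e-05). Prdx2, cytosolic like Prdx1, stood at 17.1 and 20.7 TPM in Tet2 KO, against 52.9 and 48.6 TPM in WT (-1.38 ± 0.23, adjusted p = 0.000110). The mitochondrial Prdx3 stood at 20.8 and 28.4 TPM in Tet2 KO, against 59.8 and 58.8 TPM in WT (-1.25 ± 0.23, adjusted p = 0.000387). All 4 stayed lower with ERCC scaling. Srxn1, sulfiredoxin, repairs overoxidised typical 2-Cys enzymes, and it was lower as well, at 59.8 and 90.9 TPM in Tet2 KO, against 253 and 251 TPM in WT (-1.76 ± 0.25, adjusted p = 0.000155). Prdx5, found in mitochondria, peroxisomes and cytosol, stood at 871 and 702 TPM in Tet2 KO, against 336 and 353 TPM in WT (1.18 ± 0.26, adjusted p = 0.00149). Prdx6, which uses glutathione rather than thioredoxin as its reductant, stood at 315 and 277 TPM in Tet2 KO, against 79.9 and 77.0 TPM in WT (1.90 ± 0.22, adjusted p = 2.77e-06). Prdx5 was the most abundant peroxiredoxin transcript in both Tet2 KO libraries, and Prdx1 in both WT libraries.

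**Figure D2:**
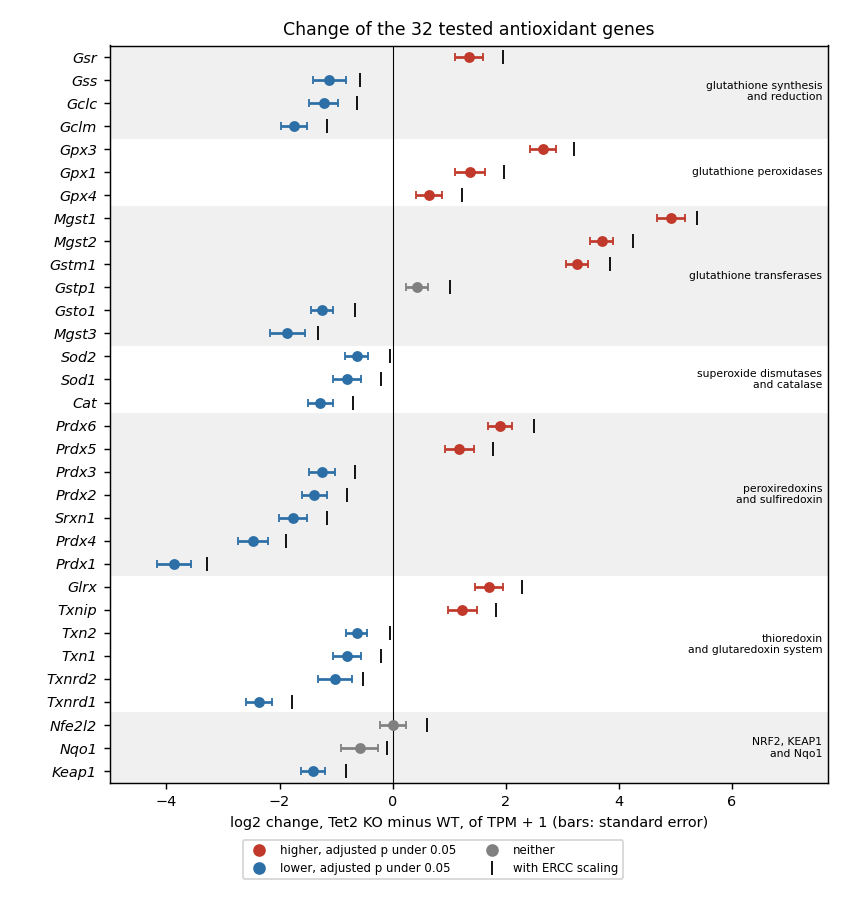
Log2 change (Tet2 KO minus WT, of TPM + 1) with its standard error for the 32 tested antioxidant genes, grouped by role; red points were higher and blue points lower at adjusted p under 0.05, and black ticks give the change with ERCC scaling. The changes run from -3.87 for Prdx1 to 4.92 for Mgst1, and the ERCC ticks lie to the right of every point.

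The thioredoxin system was lower in Tet2 KO, and its inhibitor was higher. Txnrd1, the cytosolic selenoprotein reductase, stood at 84.2 and 114 TPM in Tet2 KO, against 513 and 508 TPM in WT, 5.14-fold lower (-2.37 ± 0.23 on the log2 scale, adjusted p = 1.04e-06). Its substrate Txn1, cytosolic thioredoxin, stood at 348 and 415 TPM in Tet2 KO, against 662 and 669 TPM in WT (-0.81 ± 0.25, adjusted p = 0.0137). In mitochondria the reductase Txnrd2 stood at 3.64 and 4.06 TPM in Tet2 KO, against 8.60 and 9.05 TPM in WT (-1.02 ± 0.31, adjusted p = 0.0121). Thioredoxin-2 (Txn2) stood at 51.7 and 60.0 TPM in Tet2 KO, against 87.1 and 87.4 TPM in WT (-0.64 ± 0.19, adjusted p = 0.0120). No library of one group reached the other in these 4 genes. With ERCC scaling Txnrd1 alone among them passed as lower; the other log2 changes were then -0.21 for Txn1, -0.05 for Txn2 and -0.52 for Txnrd2, each still below the median of all genes (for Txn1 by -0.65). Txn1 also missed the threshold with quantile normalization (adjusted p = 0.0738), and Txn2 without trend and robust estimation (0.0641). The highest limma adjusted p of any alternative was 0.461 for Txn1 and 0.821 for Txn2. Txnip binds reduced thioredoxin and inhibits it. It stood at 863 and 827 TPM in Tet2 KO, against 355 and 363 TPM in WT (1.23 ± 0.25, adjusted p = 0.000870). Glrx, glutaredoxin-1, which draws on glutathione to remove glutathione from proteins, stood at 766 and 739 TPM in Tet2 KO, against 227 and 236 TPM in WT (1.70 ± 0.25, adjusted p = 3.47e-05). The ratio of Tet2 KO to WT means was 2.35 for Txnip and 3.25 for Glrx.

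Nfe2l2, which encodes NRF2, overlapped between the groups, with 266 and 223 TPM in Tet2 KO and 240 and 245 TPM in WT. It was the sole tested gene of the 32 whose groups overlapped, and its log2 change was 0.01 ± 0.23 (adjusted p = 0.973). With both WT libraries as samples the change was -0.12 without Tet2 KO replicate 1 and 0.14 without replicate 2. Nfe2l2 passed in no alternative that kept all 4 libraries. Keap1, its inhibitor, stood at 20.6 and 24.4 TPM in Tet2 KO, against 62.6 and 59.2 TPM in WT, 2.71-fold lower (-1.40 ± 0.21, adjusted p = 5.74e-05). Nqo1, a quinone reductase much used as a readout of NRF2, was low in all libraries, at 2.77 and 4.32 TPM in Tet2 KO and 4.45 and 6.96 TPM in WT. Its libraries nearly touched, and it did not pass (-0.58 ± 0.33, limma adjusted p = 0.153). When 1 library was left out, the log2 change of Nqo1 ran from -0.83 to -0.28. The highest adjusted p of any alternative was 0.795. The RNA of NRF2 says nothing of the amount of NRF2 protein, which KEAP1 controls.

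The promoters, whichever way the gene moved, were searched for the core of the antioxidant response element, TGACNNNGC, on both strands. RefSeq promoter windows (GRCm38.p6, 250 bases before to 50 after the gene start) were at hand for 32 of the 37 genes and 8 held the core. That is 25% of the genes, against 14% of 27025 genes with a window and 17.1% of 9116 tested genes with one. Of the 8, Prdx1, Txnrd1, Gclm, Srxn1 and Sod1 were lower in Tet2 KO, Mgst1 was higher, Nfe2l2 did not pass and Gstm5 was not tested. The sequences below, read 5′ to 3′ on the strand of the gene, show the match in capitals for Prdx1, the gene with the largest fall, over the whole upstream window, and for 3 further genes with 15 bases on each side. Prdx1, Txnrd1 and Gclm fell and Mgst1 rose, and in each the core reads on the opposite strand.
Prdx1, chr4:116685349-116685598, plus strand: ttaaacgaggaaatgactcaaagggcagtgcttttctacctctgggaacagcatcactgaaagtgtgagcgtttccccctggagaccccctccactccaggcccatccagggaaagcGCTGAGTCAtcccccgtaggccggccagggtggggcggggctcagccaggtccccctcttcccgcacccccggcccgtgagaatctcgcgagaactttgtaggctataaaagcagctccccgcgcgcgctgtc
Txnrd1, chr10:82859099-82859137, plus strand: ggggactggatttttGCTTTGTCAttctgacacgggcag
Gclm, chr3:122245408-122245446, plus strand: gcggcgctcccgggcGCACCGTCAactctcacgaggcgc
Mgst1, chr6:138140456-138140494, plus strand: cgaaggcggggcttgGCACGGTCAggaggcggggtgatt
Counted from the RefSeq gene start, with no position 0, the matches begin at -133 in Prdx1, -92 in Txnrd1, -134 in Gclm and -56 in Mgst1. Txnrd1 and Mgst1 have further starts whose windows held none. The Prdx1 match, TGACTCAGC on the opposite strand, overlaps the AP-1 motif TGANTCA. That motif, with or without the core in the same window, occurred in 18.8% of the 32 genes. Its share was 8.97% of all genes with a window and 6.46% of tested genes with one. A longer core, which requires an A after the C, was found in 1 of the 32 (Txnrd1), or 3.12%, against 3.45% of all genes. A match describes letters in a window and is not a measured binding site.

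**Figure D3:**
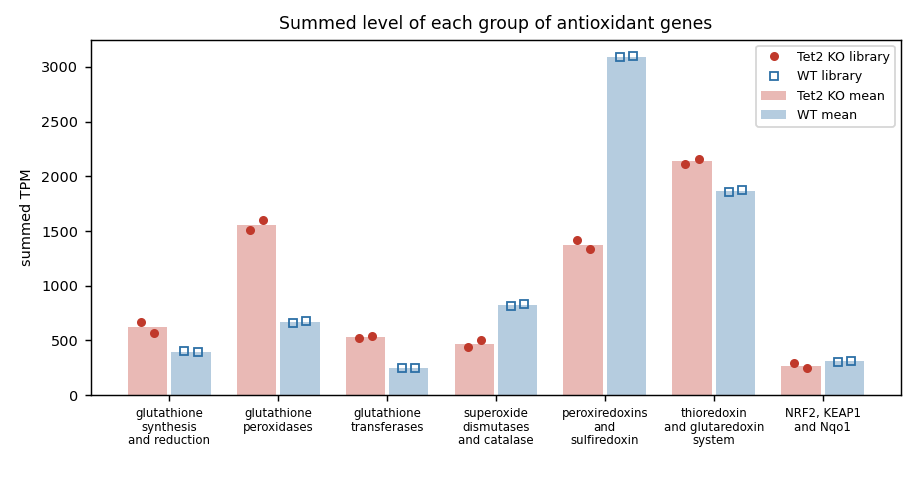
Summed TPM of each group of antioxidant genes, with bars for group means and points for libraries (Tet2 KO red, WT blue). Peroxiredoxins and sulfiredoxin summed to 1417 and 1336 TPM in Tet2 KO and 3090 and 3096 TPM in WT, whereas glutathione peroxidases summed to more in Tet2 KO.

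By summed level, the 9 transferases reached 521 and 537 TPM in Tet2 KO, against 247 and 248 TPM in WT. The thioredoxin and glutaredoxin genes summed to 2117 and 2159 TPM in Tet2 KO, and to 1853 and 1873 TPM in WT, with Txnip and Glrx higher and the others lower. The Tet2 KO libraries also differed from each other. For 17 of the 18 lower genes replicate 1 lay farther from WT than replicate 2, with Sod2 as the exception. The same order held for 78.3% of all lower genes. Among the 11 higher genes replicate 1 was farther for 6, against 59.6% of all higher genes.

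Related genes outside these 37 were called at shares of 52.4% to 58.3% a list, beside the background of 48.8%. Of 21 other tested glutathione enzymes and transporters, 6 were higher and 5 lower. The largest changes were in Abcc1, which exports glutathione conjugates, at 18.5 ± 4.55 TPM in Tet2 KO and 196 TPM in WT (-3.36 ± 0.22), in the theta-class transferase Gstt3 (-2.28 ± 0.30) and in the mu-class Gstm4 (2.18 ± 0.30). Slc7a11, the cystine importer that feeds glutathione synthesis, named after its values were seen, stood at 57.7 and 50.5 TPM in Tet2 KO, against 12.8 and 12.5 TPM in WT (2.01 ± 0.21, adjusted p = 9.72e-07). Its direction was opposite to that of Gclc, Gclm and Gss.

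Of 28 thioredoxin-fold and methionine sulfoxide repair genes, 6 were higher and 10 lower. Msrb3, a methionine sulfoxide reductase, stood at 0.290 ± 0.170 TPM in Tet2 KO and 28.9 TPM in WT (-4.54 ± 0.30). Msrb3 passed the filter through the WT libraries alone. Its selenoprotein relative Msrb1 stood at 1150 ± 281 TPM in Tet2 KO and 210.0 TPM in WT (2.43 ± 0.28). Nucleoredoxin (Nxn) was also higher (2.31 ± 0.31). Of 15 other genes of selenoproteins and their synthesis, 4 were higher and 4 lower. Sephs2, which makes the selenium donor, stood at 356 ± 95.9 TPM in Tet2 KO and 72.9 TPM in WT (2.25 ± 0.25), whereas Selm (-1.98 ± 0.31) and Pstk, a kinase of selenocysteine synthesis (-1.21 ± 0.30), were lower. The selenoproteins among the 37 had also divided, with Gpx1, Gpx3 and Gpx4 higher and Txnrd1 and Txnrd2 lower.

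Of 21 other NRF2 targets and partners tested, 7 were higher and 4 lower, beside 22.1% higher and 26.7% lower of all genes. The summed level of the 23 listed was lower, at 17878 and 16371 TPM in Tet2 KO, against 29546 and 29513 TPM in WT. Such a sum weighs the most abundant genes most, and it ran against the counts, in which more genes were higher than lower. Nfe2, a relative of NRF2 known from blood cells, stood at 256 ± 39.4 TPM in Tet2 KO and 8.69 TPM in WT (4.72 ± 0.20). Osgin1 was higher (2.61 ± 0.31) and the biliverdin reductase Blvrb lower (-2.54 ± 0.25). Of 12 genes that supply NADPH, 3 were higher and 4 lower, among them the mitochondrial folate enzyme Mthfd2 (-1.66 ± 0.21), the cytosolic isocitrate dehydrogenase Idh1 (1.66 ± 0.20) and Mthfd1 (-1.30 ± 0.33). Of 7 genes of the oxidant-producing side, 4 were higher and 0 lower. At an unadjusted limma p under 0.05 0 of the 7 were lower, and with both WT libraries as samples 0 were lower at the adjusted threshold. They included Mpo, the myeloperoxidase of primary granules, at 228 ± 35.4 TPM in Tet2 KO and 11.3 TPM in WT (4.21 ± 0.20), and Rac2, a small GTPase that activates the oxidase (2.09 ± 0.23). Beside these rises stand the sums of the neutrophil genes given above, 107789 and 86777 TPM in Tet2 KO and 1727 and 1763 TPM in WT. Mpo is in both lists, and the part of neutrophil genes in these rises was not tested.

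**Figure D4:**
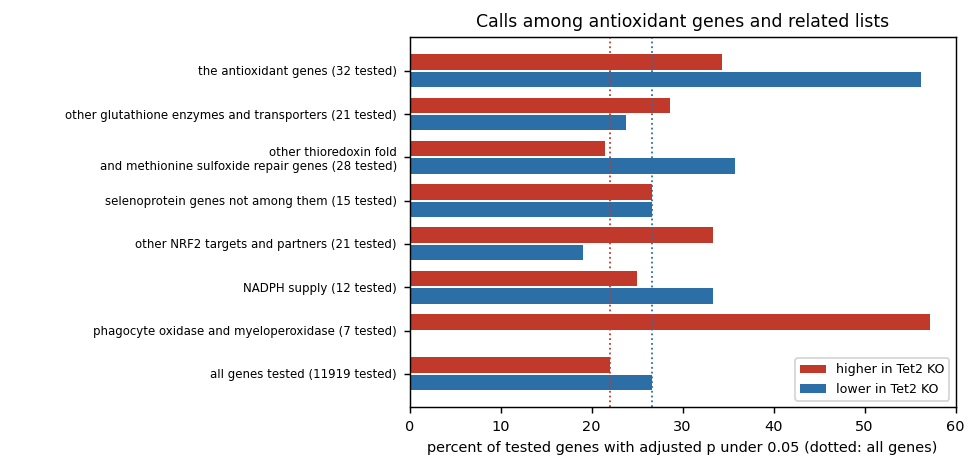
Percent of tested genes called higher (red) or lower (blue) in Tet2 KO for the antioxidant genes, 6 related lists and all genes tested, whose shares of 22.1% and 26.7% are dotted. Of the 32 antioxidant genes 11 were higher and 18 lower, and the phagocyte oxidase list had 4 of 7 genes higher and 0 lower.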

How the data were processed

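The deposited table holds TPM, made by the authors with STAR and RSEM on the mm10 build, tools named without versions or roles per the submitters' processing notes. No annotation release for the genes is named in the labels. Rows comprised 24497 mouse names and 92 ERCC spike-ins, which were left out of tests. TPM does not state depth, which was estimated from low values of genes with 1 basic GENCODE M21 transcript. Per 1000 nt of effective length, 1 read was worth 0.0809 and 0.0770 TPM (Tet2 KO) and 0.0905 and 0.100 TPM (WT). At that scale the variance between libraries was 5.73 times sampling for Tet2 KO and 1.11 times for WT (robust estimates), so the WT libraries were averaged. Estimates that were not robust gave 37.2 times for Tet2 KO and 2.12 times for WT, where 16 of 1967 genes lay beyond 5 SD. Limma 3.58.1 in R 4.3.3 was run on log2(TPM + 1) with trend and robust estimation, which understates changes of low genes; with 1 residual degree of freedom, WT is assumed to vary as Tet2 KO does. The threshold was an adjusted p of 0.05, two-sided. The fit was also run on simulated data of 11919 genes. There WT was given the spread of Tet2 KO, so that run does not test this assumption. All 37 listed genes are named; from each related list the 3 called genes with the largest change are named, apart from 1 that is not reported here. Genes and lists were chosen with earlier results of these data known. Coordinates are GENCODE M21 (mm10), counted from 1.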

Additional observations from a re-analysis of the deposited data

How the results depend on the processing

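The counts of called antioxidant genes, 11 higher and 18 lower, stayed within 1.5 times under both pseudocounts, a 5 TPM filter, quantile normalization, median centring, limma without trend and robust estimation and both WT libraries as samples, with 10 to 12 higher and 15 to 18 lower. Leaving out 1 library gave 11 to 13 higher and 18 to 19 lower. Without the filter 0 were higher and 0 lower by limma (8 and 8 at an unadjusted p under 0.05), and over all genes 123 and 295; the cause was not tested. With ERCC scaling 11 were lower, and over all genes 4942 higher and 1492 lower; ERCC took 2.95% and 3.19% of TPM in Tet2 KO and 4.66% and 4.62% in WT. Over all genes, leaving out 1 library gave 2651 to 4321 higher and 3192 to 5674 lower; without a Tet2 KO library both WT libraries were samples, with the lone Tet2 KO sample taken to vary like WT. The log2 change of Nfe2l2, which did not pass, ran from -0.12 to 0.14 when 1 library was left out, and was -0.0040 without WT replicate 1. The motif count fell to 1 of 32 genes with the longer core. The replicate numbers are only shared labels (correlation of deviations -0.01 over 11919 genes); a replicate block gave 12 higher and 19 lower antioxidant genes, adding Gstp1 as higher (adjusted p = 0.0130) and Nqo1 as lower (0.0257), and 3495 and 4461 over all genes. Per 1000 nt of effective length, 1 read was worth at least 0.0770 TPM, which limits what the 5 genes under the filter can show.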
